A study of Mus musculus with 2 samples.

Results

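The 9 genes described here encode proteins that take iron into the cell, store it, free it from heme, export it or sense it. They are *Tfrc*, *Slc11a2*, *Steap3*, *Fth1*, *Ftl1*, *Hmox1*, *Slc40a1*, *Aco1* and *Ireb2*, taken by name from the 29453 gene columns of the spliced and unspliced count matrices, and all 9 were found. The matrices come from chimeric mouse embryos, in which *Gata1*-null pluripotent stem cells that express tdTomato were injected into wildtype C57BL/6 E3.5 blastocysts. The mutant cells were 1 clone with a 38 base-pair frameshift in exon 4 of *Gata1*, an X-linked gene for a transcription factor that red cell formation requires. 6 embryos were pooled, dissociated and sorted into a tdTom+ fraction (mutant cells) and a tdTom- fraction (host cells), and each fraction gave 1 droplet library. The labels give an age of E8.5 for the tdTom+ library and E8.6 for the tdTom- library, although both came from the same pool. The title of the tdTom- library reads E8.5, and the authors state a harvest at E8.5. Since the fractions are 1 library each, genotype, cell line, sex and library cannot be told apart. No test between the fractions is possible, and every interval below covers counting error only.

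Developing red cells have a high need for iron, because heme, the oxygen-binding group of haemoglobin, holds an iron atom. Transferrin carries iron in the blood, the transferrin receptor TFRC takes it into endosomes, the reductase STEAP3 reduces it there, and the transporter SLC11A2 (DMT1) moves it into the cytosol. Ferritin, built from the heavy chain FTH1 and the light chain FTL1, stores iron that is not in use, heme oxygenase HMOX1 releases iron from heme, and ferroportin (SLC40A1) is the known exporter of iron from cells. When iron is scarce, the regulatory proteins IRP1 (gene *Aco1*) and IRP2 (gene *Ireb2*) bind a hairpin in the target RNAs, the iron responsive element. Bound in the 5' UTR it blocks translation, and bound in the 3' UTR it protects the RNA from decay, so that uptake and storage are set in opposite directions.

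These hairpins are the sequence by which the IRPs act on their target RNAs, and they were read from the GENCODE M21 transcripts (GRCm38). The pattern searched on the sense strand was an unpaired C, 5 paired bases, the loop CAGTGN and the 5 bases that pair with them, with at least 3 of the 5 pairs below the C, and 45 of 21877 protein-coding genes (0.206%) held it in a UTR. Among the 9 genes, 4 held it. Each line gives 30 bases from 5' to 3', with the unpaired C and the loop in capitals.
Fth1, 5' UTR, chr19:9982732-9982761, plus strand: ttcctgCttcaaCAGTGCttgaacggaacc
Ftl1, 5' UTR, chr7:45459778-45459807, minus strand: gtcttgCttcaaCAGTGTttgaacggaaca
Slc40a1, 5' UTR, chr1:45925464-45925493, minus strand: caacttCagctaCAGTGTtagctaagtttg
Tfrc, 3' UTR, chr16:32631219-32631248, plus strand: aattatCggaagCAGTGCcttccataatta
Tfrc, 3' UTR, chr16:32631598-32631627, plus strand: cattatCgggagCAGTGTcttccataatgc
Tfrc, 3' UTR, chr16:32631663-32631692, plus strand: ctatatCggagaCAGTGAtctccatatgtt
Tfrc, 3' UTR, chr16:32631710-32631739, plus strand: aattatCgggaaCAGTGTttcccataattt
The storage and export genes thus carried the pattern at the start of the RNA and the receptor gene carried 4 copies behind the coding sequence. A match describes the letters only, and binding was not measured. The search needed all 5 pairs above the C and this loop, so elements of another form would be missed. A gene without a match is thus not shown to lack an element, and the 4 copies in *Tfrc* are those of this pattern.

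The libraries held 8981 tdTom+ and 9252 tdTom- barcodes, of which 8576 and 8710 cells were kept, with medians of 17598 and 15996 spliced unique molecular identifiers (UMIs, counts of RNA molecules) per cell. 18 barcode sequences occurred in both libraries. Levels are given in CPM, in which the spliced UMIs of a gene are divided by all spliced UMIs of the group and scaled to the usual fixed total. *Gata1* itself stood at 6.73 CPM in the tdTom+ library and at 29.3 CPM in the tdTom- library, while 1532 of its UMIs in tdTom+ cells and 413 in tdTom- cells were unspliced. Cells were clustered without the iron genes and named from marker genes. The tdTom- library held 1382 erythroid-like cells in 3 sub-clusters, here called early (340 cells, in which globin genes made 6.00% of UMIs), later 1 (391 cells) and later 2 (651 cells). The tdTom+ library held 2 cells in these sub-clusters and, with those 2 counted in, 1364 blood progenitor-like cells, the rest of them in its sub-clusters 1, 4, 7 and 12, which had raised erythroid markers but more raised progenitor markers. Visceral endoderm-like cells, with 8 of 8 markers raised, were 62 tdTom- and 8 tdTom+ cells, and extraembryonic ectoderm-like cells, with 5 of 5, were 111 tdTom- and 4 tdTom+ cells.

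Host erythroid-like cells were first compared with the 6862 host cells outside the haemato-endothelial clusters (called non-blood below). The 3 genes of uptake and the ferritin heavy chain were higher, and *Hmox1* and *Aco1* were lower. *Slc40a1* was also lower, but by under 2-fold in 2 alternatives. Of 9 members, 4 were at least 2-fold higher and 3 at least 2-fold lower. The background in this comparison was wide: 49.6% of 13456 genes with at least 50 spliced UMIs over the 2 groups differed at least 2-fold, 4.6% higher and 45% lower. Against these shares, 4 of 9 members were higher and 3 of 9 lower. Lower folds were common among all genes: 22.1% had a lower fold than *Hmox1*, 33.6% than *Aco1* and 41.1% than *Slc40a1*. The median log2 fold was 0.75 over the 9 members and -0.80 over all genes.

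*Tfrc*, the receptor through which cells take up transferrin iron, was at 238 CPM in host erythroid-like and 66.2 CPM in host non-blood cells, a log2 fold of 1.85 (95% interval 1.80 to 1.89). *Slc11a2*, the endosomal iron transporter, was at 21.6 and 8.15 CPM, a log2 fold of 1.41 (1.25 to 1.56). *Steap3*, the endosomal ferric reductase, had 52 spliced UMIs in the 1382 erythroid-like cells and 3 in the 6862 non-blood cells, a log2 fold of 6.11 (4.49 to 8.44). *Steap3* needs a reservation: its 82 spliced and 290 unspliced UMIs over both libraries equalled 18.1% of the authors' Cell Ranger total of 2051 UMIs. This percentage was 85.0% for *Slc11a2* and 99.1% to 128% for the other 7 members. For *Aco1* (128%) and *Ireb2* (123%) both layers together exceeded the total, so the total does not hold all UMIs of both layers. The authors extracted the layers with velocyto, a program other than the one behind the total. Why the counts differ was not tested. Spliced UMIs alone were 82 against 2051 for *Steap3* and 3089 against 5073 for *Slc11a2*. The spliced fold of *Steap3* therefore rests on a smaller part of that total than 18.1%. With both layers added, *Steap3* had 248 UMIs in erythroid-like and 25 in non-blood cells, a log2 fold of 5.38 (4.79 to 6.04).

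*Fth1*, the heavy chain that oxidizes iron for storage, was at 9737 CPM in host erythroid-like and 1991 CPM in host non-blood cells, a log2 fold of 2.29 (2.28 to 2.30). *Ftl1*, the light chain, was at 5417 and 3218 CPM, a log2 fold of 0.75 (0.74 to 0.76) that did not reach 2-fold. The 2 chains of ferritin therefore differed in how far they stood above other cells, and the molecules of *Fth1* per molecule of *Ftl1* were 1.80 (1.79 to 1.81) in erythroid-like and 0.619 (0.615 to 0.622) in non-blood cells. A retained pseudogene, *Ftl1-ps1*, is a column of its own and took 0.0932% of the summed *Ftl1* and *Ftl1-ps1* UMIs in erythroid-like cells, but reads of such near copies can be split or dropped in mapping.

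*Hmox1*, the enzyme that opens the heme ring and frees its iron, was at 3.38 CPM (91 UMIs) in host erythroid-like and 27.0 CPM (2901 UMIs) in host non-blood cells, which is 7.98-fold lower (log2 interval -3.31 to -2.70). *Slc40a1*, the exporter, had 41 and 376 UMIs, a log2 fold of -1.20 (-1.70 to -0.73). This fold was -0.78 with both layers added, and -0.92 without the 62 visceral endoderm-like cells, which held 71 of the 376 UMIs, so it did not reach 2-fold in either. *Aco1* was at 7.47 CPM (6.48 to 8.58) and 25.7 CPM (24.8 to 26.7), a log2 fold of -1.78, and *Ireb2* at 18.6 and 33.4 CPM, a log2 fold of -0.85 (-0.98 to -0.71). Of these 4 genes, *Ireb2* was the one below the 2-fold line.

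**Figure D1:**
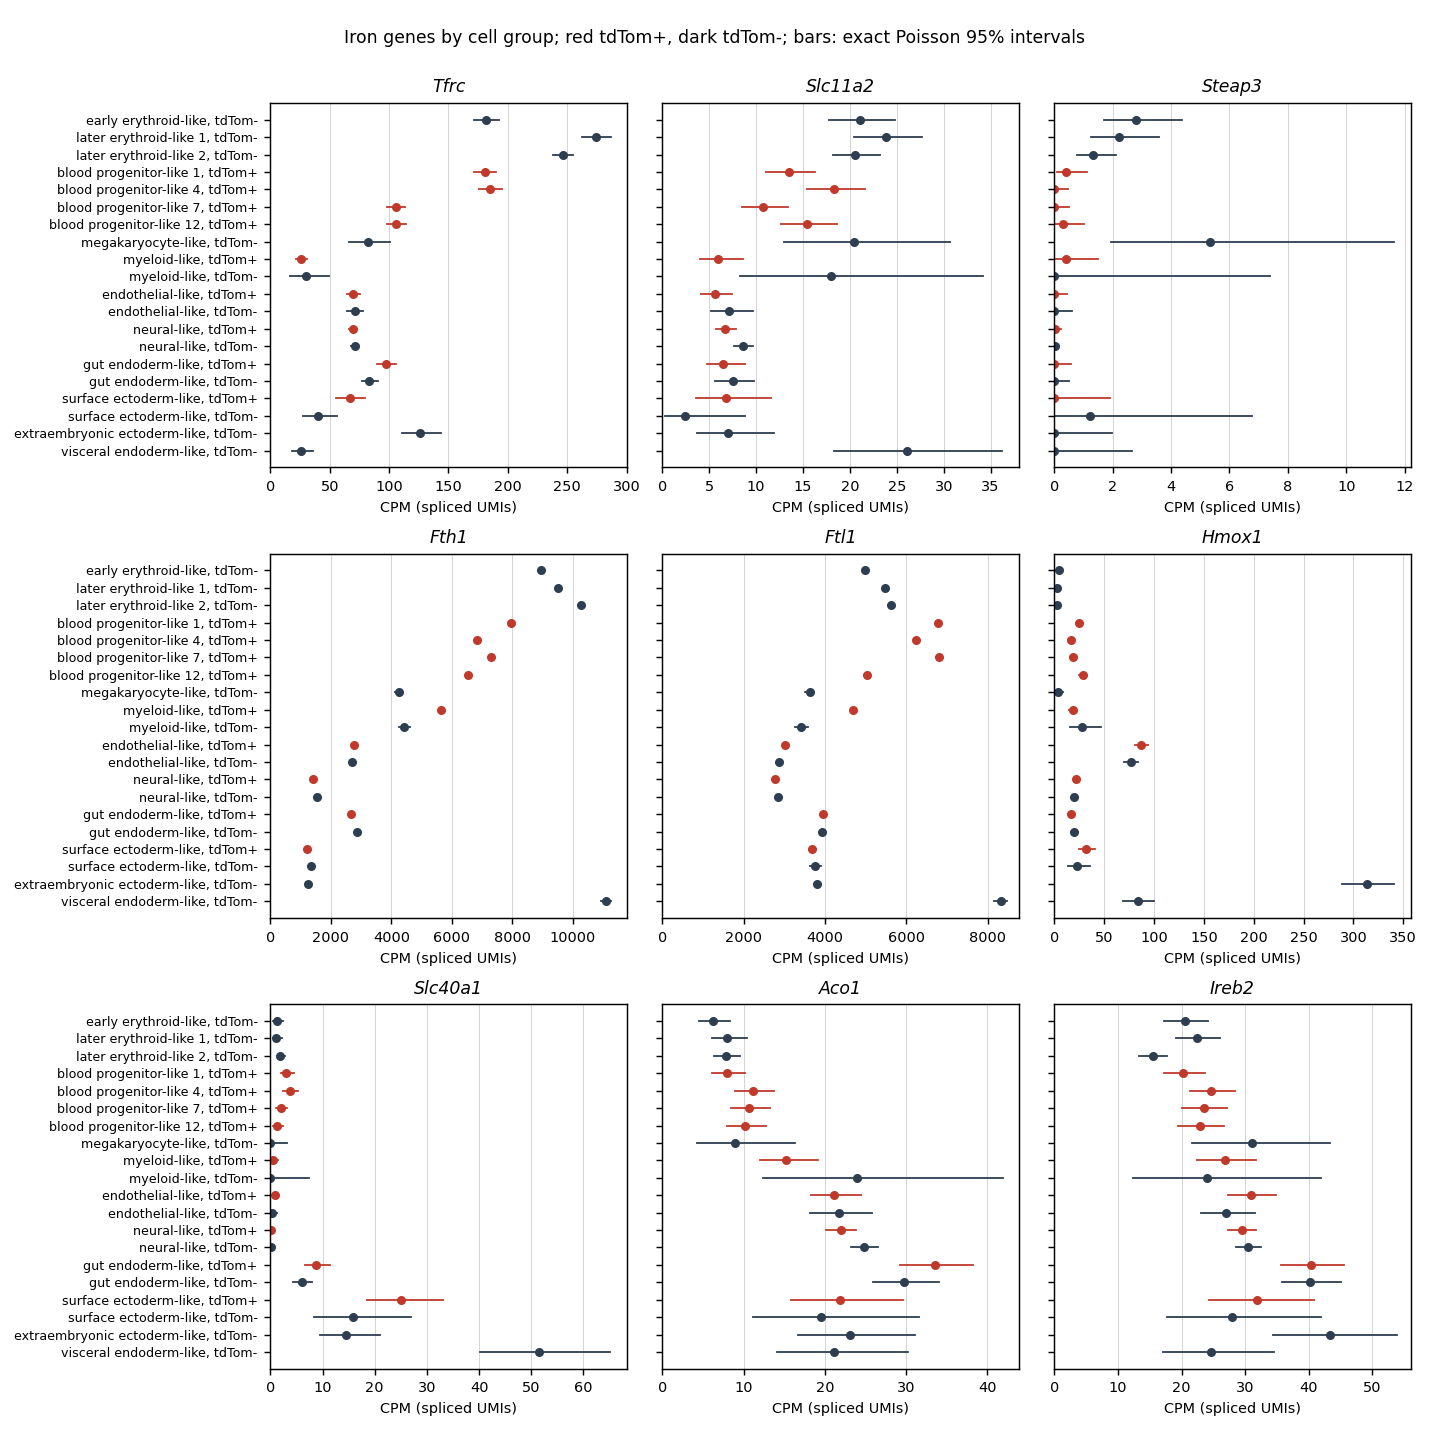
Level of each iron gene, in CPM of spliced UMIs on a linear axis from 0, in 20 cell groups; points are the value of all cells of a group together, bars are exact Poisson 95% intervals, red is tdTom+ and dark is tdTom-. *Tfrc* and *Fth1* are high in erythroid-like and blood progenitor-like groups, *Hmox1* is near 0 in the 3 host erythroid-like groups and at 314 CPM in extraembryonic ectoderm-like cells, and *Slc40a1* is highest, at 51.6 CPM, in visceral endoderm-like cells.

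Within the host erythroid-like cells no member passed 2-fold, except *Hmox1* at a log2 fold of -1.71 once cells were thinned to 5000 UMIs. That value rests on few molecules, since thinned *Hmox1* was seen in 10 of 338 early and 11 of 1014 later cells. Between the early and the later erythroid-like cells 1.71% of 8543 genes differed at least 2-fold (0.48% higher, 1.23% lower), and 0 of the 8 members with enough UMIs did. *Tfrc* was at 182 CPM in early, 274 CPM in later 1 and 247 CPM in later 2 cells, and its log2 fold of later over early was 0.50 (0.41 to 0.59). Both later groups lay above the early one and their intervals did not overlap it. *Hmox1* was at 5.02 CPM in early, 2.76 CPM in later 1 and 2.87 CPM in later 2 cells, with 34, 20 and 37 UMIs, a log2 fold of -0.83 (-1.46 to -0.17). *Fth1* and *Ftl1* had log2 folds of 0.16 each, *Slc11a2* of 0.04 (-0.23 to 0.33), *Aco1* of 0.35 (-0.15 to 0.88), *Ireb2* of -0.19 (-0.48 to 0.10) and *Steap3*, with 19 and 33 UMIs, of -0.77 (-1.63 to 0.12). The interval of each of *Slc11a2*, *Aco1*, *Ireb2* and *Steap3* included 0, and the ratio of *Fth1* to *Ftl1* was 1.80 in early and in later cells alike.

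To compare the fractions in the blood cells most alike in expression, each tdTom+ blood cell was set beside its 15 nearest tdTom- blood cells in expression space, and the 1073 of 1619 tdTom+ blood cells (66.3%, 63.9 to 68.6) whose neighbours were most often early erythroid-like cells were compared with the 340 early cells of the host. All 1073 came from the blood progenitor-like sub-clusters, and their globin share was 1.96%, so that stage and genotype cannot be told apart here. Sub-clusters 1, 4, 7 and 12 held 1, 0, 0 and 2 host cells, so hardly any host progenitor-like cells were there to be matched. With cosine distance 704 cells were matched, so the share depends on the distance used, which its interval does not cover. Among the members tested, *Hmox1* differed most. Of the 8 members with at least 50 spliced UMIs over both groups, 2 were at least 2-fold higher in tdTom+ cells and 0 lower, and over all 9161 genes 11.1% differed, 7.75% higher and 3.35% lower. The median log2 fold was 0.24 over these members and 0.11 over all genes.

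*Hmox1* was at 24.8 CPM (586 UMIs) in matched tdTom+ and 5.02 CPM (34 UMIs) in the early host cells, with a log2 fold of 2.30 (1.80 to 2.85), which was 1.59 once each cell was thinned to 5000 UMIs. It was 28.5, 24.9, 18.8 and 16.8 CPM in the tdTom+ sub-clusters 12, 1, 7 and 4, so each of the 4 stood above each of the 3 host erythroid-like groups with no overlap of intervals. The tdTom+ level was close to that outside the blood, since tdTom+ blood progenitor-like cells had 22.1 CPM and tdTom+ non-blood cells 23.5 CPM, a log2 fold of -0.09 (-0.22 to 0.03). Among host blood cells, the 62 megakaryocyte-like cells had 4 UMIs of *Hmox1*, or 3.56 CPM (0.970 to 9.11), while the 31 host myeloid-like cells had 28.0 CPM (15.3 to 47.0). The lowest tdTom+ blood group, the 122 cells matched to later erythroid-like cells, had 13.8 CPM (9.72 to 19.0).

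*Slc40a1* was the second member past 2-fold, on few molecules: 60 UMIs (2.54 CPM) in matched tdTom+ and 8 UMIs (1.18 CPM) in the early host cells, with a log2 fold of 1.10 (0.03 to 2.38). With cosine distance, which matched 704 cells, it fell under the limit of 50 UMIs and was not called. Its log2 fold in the shared non-blood cells was 0.37 (0.15 to 0.59). As a measure of free RNA, globin genes made 0.0177% of UMIs in tdTom+ and 0.0930% in tdTom- neural-like cells. In these cells the level of *Slc40a1* was 0.206 CPM (tdTom+) and 0.181 CPM (tdTom-).

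The 3 uptake genes had lower values in the tdTom+ cells. *Tfrc* was at 148 CPM in matched tdTom+ and 182 CPM in the early host cells, with a log2 fold of -0.30 (-0.39 to -0.20). The tdTom+ sub-clusters were unequal, since 1 and 4 had 180 and 185 CPM and 7 and 12 had 106 CPM each. *Slc11a2* was at 14.7 and 21.1 CPM, a log2 fold of -0.52 (-0.81 to -0.23), and it was also lower in tdTom+ shared non-blood cells, by a log2 fold of -0.30 (-0.46 to -0.14). *Steap3* had 4 spliced UMIs in the 1073 tdTom+ and 19 in the 340 tdTom- cells, under the limit of 50. With both layers added it had 19 and 60 UMIs, or 0.714 and 7.92 CPM. This log2 fold of -3.47 (-4.30 to -2.71) was the largest of the 9 members in size when both layers are used. The reservation on its counting given above holds here too.

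The 2 ferritin chains differed between the fractions in opposite directions, each by under 2-fold. *Fth1* was at 7322 CPM in matched tdTom+ and 8962 CPM in the early host cells, with a log2 fold of -0.29 (-0.30 to -0.28), and *Ftl1* at 6334 and 4980 CPM, a log2 fold of 0.35 (0.33 to 0.36). In matched tdTom+ cells the ratio of *Fth1* to *Ftl1* was 1.16 (1.15 to 1.16), against 1.80 (1.78 to 1.82) in early host cells. It lay between 1.08 and 1.30 in the 4 tdTom+ sub-clusters and between 1.74 and 1.83 in the 3 host erythroid-like groups, so these did not overlap. Host megakaryocyte-like cells had 1.17 (1.12 to 1.22) and the myeloid-like cells 1.21 in tdTom+ and 1.30 in tdTom-, with an interval of 1.18 to 1.23 in the former and 1.22 to 1.38 in the latter. Sub-clusters 4 and 7, at 1.10 and 1.08, lay below the intervals of these other blood cells, while the intervals of sub-cluster 1 (1.16 to 1.19) and sub-cluster 12 (1.29 to 1.32) overlapped with at least 1 of them. Visceral endoderm-like cells of the host had 1.33 (1.30 to 1.37). In shared non-blood cells the ratio was also lower in tdTom+ than in tdTom- cells, at 0.542 (0.539 to 0.545) and 0.590 (0.586 to 0.593). Endothelial-like cells had 0.916 and 0.941, with overlapping intervals. Presomitic and somitic mesoderm-like cells went the other way, at 0.463 and 0.457, also with overlap. The counting intervals are narrow because ferritin RNA is abundant, and they say nothing of how far libraries would vary.

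**Figure D2:**
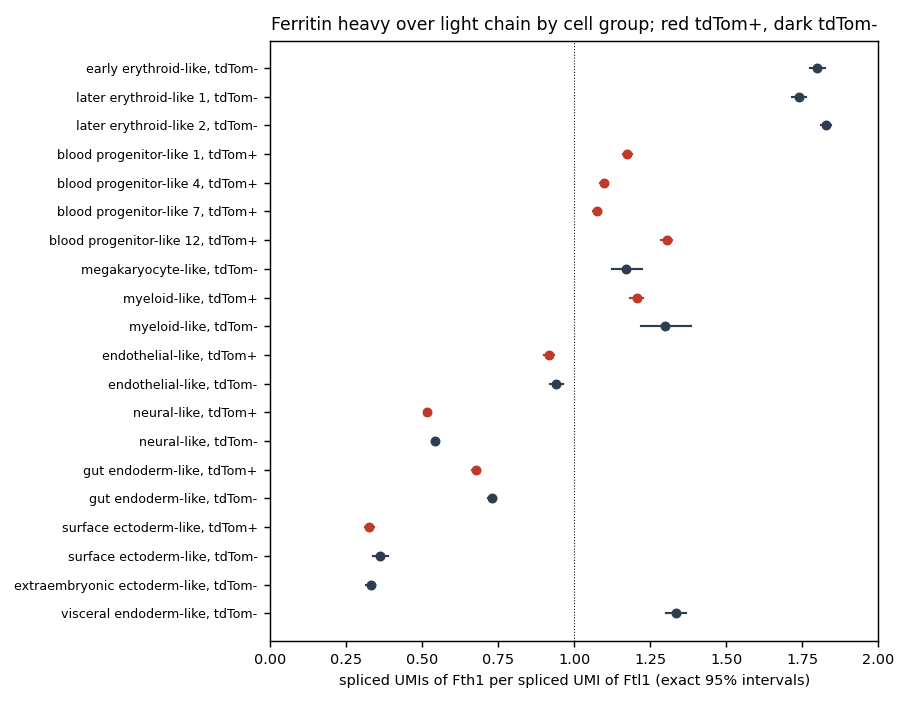
Spliced UMIs of *Fth1* per spliced UMI of *Ftl1* in 20 cell groups, with exact 95% intervals, red for tdTom+ and dark for tdTom-. The 3 host erythroid-like groups lie between 1.74 and 1.83, the 4 tdTom+ progenitor groups between 1.08 and 1.30, and the neural-like groups at 0.514 and 0.540.

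Of the sensors, *Aco1* was at 9.73 CPM in matched tdTom+ and 6.20 CPM in the early host cells, with a log2 fold of 0.65 (0.17 to 1.16), and *Ireb2* at 22.5 and 20.5 CPM, a log2 fold of 0.14 (-0.14 to 0.42). Neither reached 2-fold. In all tdTom+ blood progenitor-like cells over tdTom+ non-blood cells the log2 fold was -1.32 (-1.50 to -1.15) for *Aco1* and -0.56 (-0.68 to -0.44) for *Ireb2*. Of all genes with enough UMIs there, 30.5% had a lower fold than *Aco1* and 45.2% than *Ireb2*.

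The tdTom+ blood progenitor-like cells were also compared with the tdTom+ non-blood cells. Of 8 members with enough UMIs, 3 were at least 2-fold higher and 1 lower, in a comparison where 41.4% of 13422 genes differed, 6.38% higher and 35% lower, and the median log2 fold was 0.44 over these members and -0.42 over all genes. *Tfrc* was at 146 and 66.7 CPM, a log2 fold of 1.13 (1.07 to 1.18), *Slc11a2* at 14.5 and 6.53 CPM, 1.15 (0.98 to 1.33), and *Fth1* at 7184 and 1861 CPM, 1.95 (1.94 to 1.96). *Ftl1*, at 6236 and 3183 CPM, had a log2 fold of 0.97 (0.96 to 0.98), and passed 2-fold, at 1.01, with both layers added. These cells and the host erythroid-like cells were each compared with their own library, and no test between the 2 comparisons was made.

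**Figure D3:**
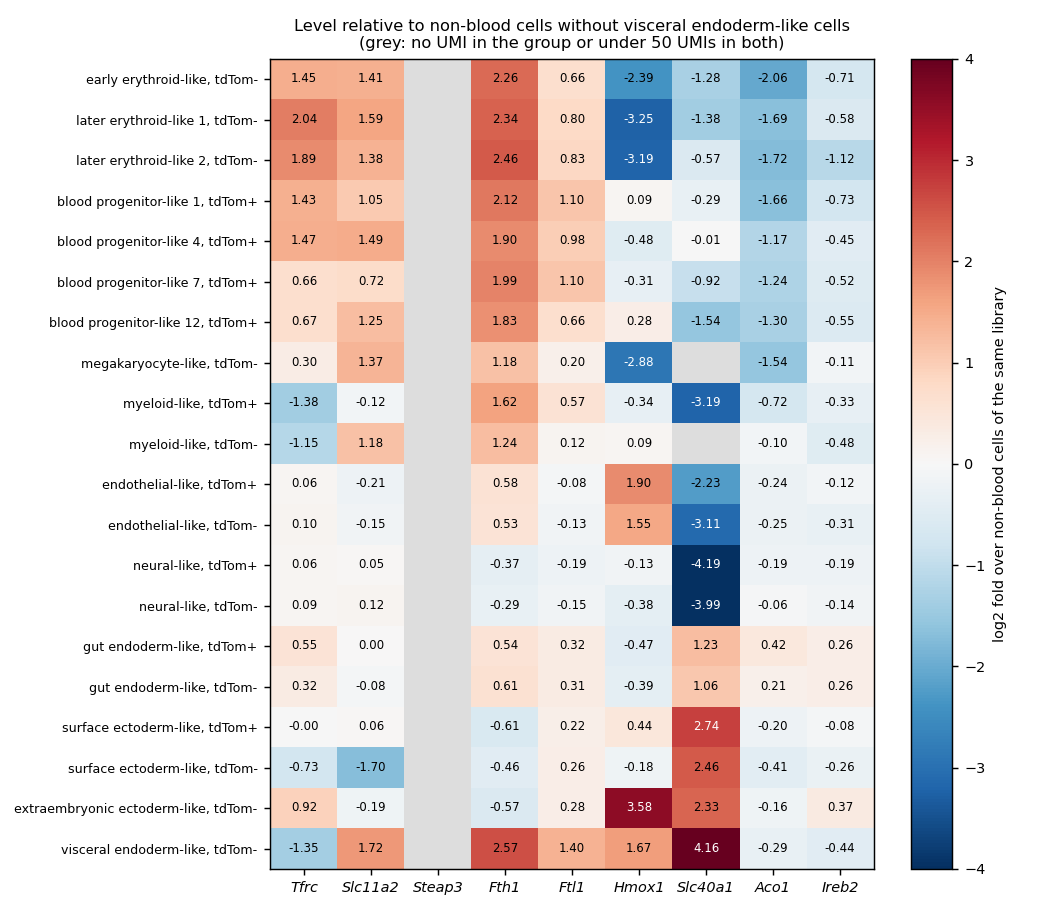
Log2 fold of each gene in 20 cell groups over the non-blood cells of the same library, visceral endoderm-like cells left out of those; red is higher, blue is lower, and grey marks values with no UMI in the group or under 50 UMIs in both. In tdTom+ blood progenitor-like and in host erythroid-like rows *Tfrc*, *Slc11a2* and *Fth1* are above 0 and *Aco1* is below it, with *Tfrc* between 0.66 and 1.47 in the former and between 1.45 and 2.04 in the latter. *Hmox1* is between -0.48 and 0.28 in the former and between -3.25 and -2.39 in the latter. Neural-like, gut endoderm-like, surface ectoderm-like and extraembryonic ectoderm-like cells are themselves part of the non-blood cells.

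The members' course was set beside a wider list of iron genes, of which 47 were measured and 28 had enough UMIs in the matched comparison. 3 of these were at least 2-fold higher in tdTom+ cells and 5 lower, where 7.75% of all 9161 genes were higher and 3.35% lower, and their median log2 fold was -0.10. The largest was *Slc48a1*, for the transporter HRG1 that brings heme out of endosomes and lysosomes, at 121 CPM in matched tdTom+ and 10.8 CPM in the early host cells, with a log2 fold of 3.49 (3.15 to 3.84). *Tfr2*, for the second transferrin receptor, had 66 and 4 UMIs, a log2 fold of 2.24 (0.82 to 4.16). Lower were *Slc25a37*, for mitoferrin 1 that feeds iron into mitochondria for heme, at 45.0 and 274 CPM, a log2 fold of -2.61 (-2.72 to -2.50), and *Alas2*, for the first enzyme of erythroid heme synthesis, at 31.8 and 170 CPM, -2.42 (-2.56 to -2.29). *Alas2* was also among the cell type markers, and stage and genotype cannot be told apart for these genes either. *Blvrb*, for a biliverdin reductase, was at 408 and 1173 CPM, -1.52 (-1.57 to -1.48), and *Abcg2*, for a transporter that exports heme precursors, at 76.3 and 181 CPM, -1.25 (-1.35 to -1.14). Of the 14 genes for mitochondrial iron handling, all 14 had enough UMIs, 1 was higher and 1 lower, with a median of -0.16.

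In tdTom+ progenitors over tdTom+ non-blood cells the wider list had 13 of 38 genes higher and 10 lower, against 6.38% and 35% of all genes. In host erythroid-like over host non-blood cells it also had 13 of 38 higher and 10 lower, against 4.6% and 45%. *Slc48a1*, at 124 and 5.82 CPM in tdTom+ progenitors and non-blood cells, was a log2 fold of 4.41 (4.29 to 4.53) higher there.

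Cell types that both fractions formed were compared next. In the endothelial-like cells (501 tdTom+, 370 tdTom-) 0.935% of 9197 genes differed at least 2-fold (0.294% higher, 0.642% lower) and 0 of 7 members did. *Hmox1* was at 87.2 and 77.0 CPM there, a log2 fold of 0.18 (0.01 to 0.35), and *Tfrc* at 69.8 and 71.2 CPM, -0.03 (-0.21 to 0.15). In the non-blood cells of clusters that both fractions shared (5135 tdTom+, 5542 tdTom-) 2.59% of 13995 genes differed (0.457% higher, 2.14% lower) and 0 of 8 members did. *Hmox1* was at 21.6 and 21.3 CPM, 0.02 (-0.07 to 0.12), *Fth1* at 1785 and 1939 CPM, -0.12 (-0.13 to -0.11), and *Ftl1* at 3293 and 3286 CPM, 0.00 (0.00 to 0.01). Within the 21 single clusters with at least 20 cells of each fraction, 1 of 143 values of the members differed at least 2-fold, where 1.53% of the 165969 values of all genes did (0.606% higher, 0.924% lower). It was *Slc11a2*, at -1.57 in the cluster named myeloid-like, in which 51 of the 82 host cells and 1 of the 235 tdTom+ cells belonged to the megakaryocyte-like sub-cluster. In the myeloid-like sub-cluster, which leaves those cells out, it was -1.59 (-2.71 to -0.33), on 29 and 9 UMIs. In 19 of the single clusters *Hmox1* ranged from -0.50 to 0.54 on the log2 scale. The 2.30 in the matched blood cells is not a like value, since it set tdTom+ progenitor-like beside host erythroid-like cells.

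**Figure D4:**
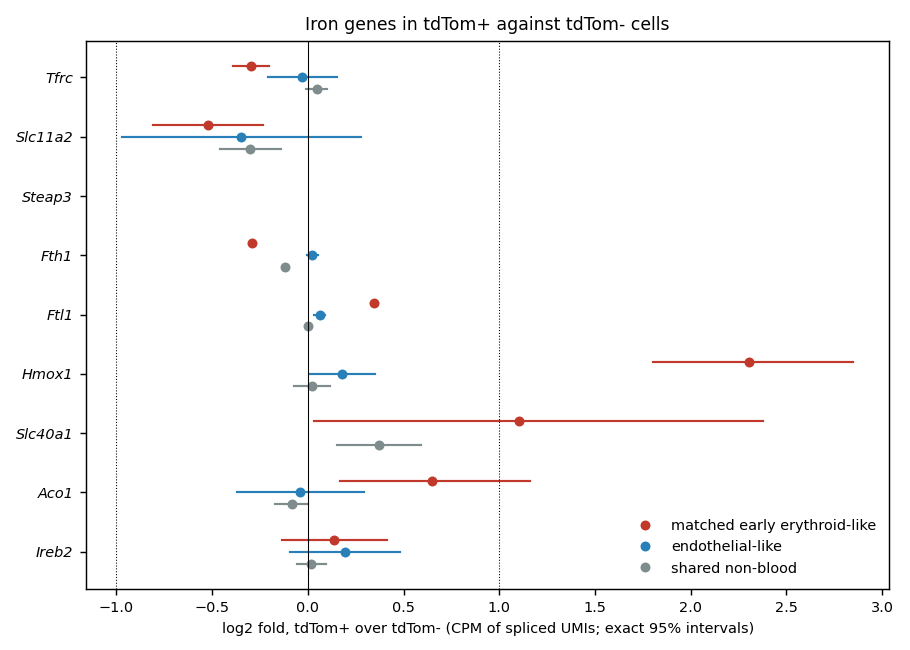
Log2 fold of tdTom+ over tdTom- cells for the members with at least 50 UMIs, in matched blood cells (red, labelled matched early erythroid-like), endothelial-like (blue) and shared non-blood cells (grey), with exact 95% intervals and dotted lines at 2-fold. The matched tdTom+ cells were blood progenitor-like and the host cells early erythroid-like, so the red values compare cells unlike in kind. *Hmox1* in matched blood cells, at 2.30, lies beyond 2-fold, and its values in the other cells are 0.18 and 0.02.

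**Figure D5:**
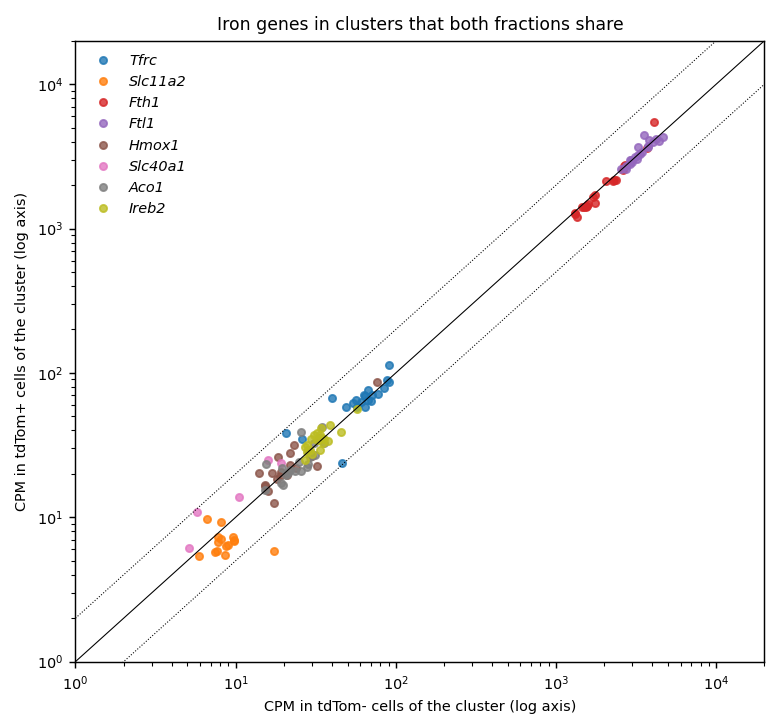
Level of each member in tdTom+ against tdTom- cells of the clusters with at least 20 cells of each fraction, both axes in CPM on a log scale, with lines at equality and at 2-fold (dotted). Of 143 points, 1 lies beyond 2-fold.

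In the myeloid-like cells, which lead with *Fcer1g*, *Spi1* and *Tyrobp* and also had raised progenitor markers, the level of *Fth1* was 5656 CPM in 254 tdTom+ and 4436 CPM in the 31 host cells, with a log2 fold of 0.35 (0.29 to 0.41). *Ftl1* was at 4691 and 3417 CPM, 0.46 (0.39 to 0.53). *Tfrc* was low in both, at 25.7 CPM (21.4 to 30.7) in tdTom+ and with 15 UMIs (16.8 to 49.5 CPM) in tdTom- cells, below each of the other blood cell groups. 0 of 6 members with enough UMIs differed at least 2-fold, against 9.28% of 7088 genes (6.31% higher, 2.98% lower). *Slc11a2*, under the limit of 50 with 29 and 9 UMIs, had a log2 fold of -1.59 (-2.71 to -0.33), and with both layers added, at 41 and 12 UMIs, it passed 2-fold at -1.52 (-2.48 to -0.46). The host cells gave 0 UMIs of *Slc40a1*, the exporter, and the tdTom+ cells gave 2. The exact interval of the host group, which had 499794 spliced UMIs, reached 7.38 CPM.

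Visceral endoderm, the absorptive epithelium that surrounds the embryo and lines the yolk sac, had high RNA for the exporter and low RNA for the receptor. In the 62 host visceral endoderm-like cells 6 of 8 members differed at least 2-fold from the other host non-blood cells, 5 higher and 1 lower, in a comparison where 35.3% of 13236 genes differed, 13.3% higher and 22% lower. The median log2 fold was 1.53 over these members and -0.14 over all genes. *Slc40a1*, the exporter, was at 51.6 and 2.88 CPM, from 71 and 305 UMIs, a log2 fold of 4.16 (3.77 to 4.54). After thinning each cell to 5000 UMIs, which left out 3 cells, 12 of 59 cells (20.3%, 10.98 to 32.8) had a UMI of it. The share was 1.37% in the other host non-blood cells. Among these it was 11.1% (4.19 to 22.6) in surface ectoderm-like cells, an overlapping interval, and 0.148% in neural-like cells. Without thinning, the shares were 62.9%, 3.82%, 20.4% and 0.288% in the same order, at median depths of 22928, 15131, 14135 and 15274 UMIs. *Tfrc* was at 26.1 CPM, from 36 UMIs, and 66.7 CPM, a log2 fold of -1.35 (-1.87 to -0.88), and so was the one member lower. Low *Tfrc* was not particular to these cells. Single host clusters of allantois and extraembryonic mesenchyme-like cells had 20.5 and 26.1 CPM, against 51.3 CPM over all host cells of that name. An unnamed host cluster of 20 cells had 7.91 CPM. In visceral endoderm-like cells the gene for the ligand of the receptor was high. *Trf*, for transferrin, was at 115 CPM in them and 0.387 CPM in the other cells, from 159 and 41 UMIs, a log2 fold of 8.22 (7.72 to 8.75).

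Both ferritin chains were highest of all groups with at least 20 cells in visceral endoderm-like cells. *Fth1* was at 11101 and 1872 CPM, a log2 fold of 2.57 (2.54 to 2.59), and *Ftl1* at 8318 and 3151 CPM, 1.40 (1.37 to 1.43). *Slc11a2* was at 26.1 CPM (18.3 to 36.2) and 7.92 CPM (7.39 to 8.48), a log2 fold of 1.72 that was 0.93 once cells were thinned, and *Hmox1* at 83.5 and 26.3 CPM, 1.67 (1.39 to 1.94). Thinned *Slc11a2* was seen in only 4 of 59 visceral endoderm-like cells (6.78%, 1.88 to 16.5). *Aco1* and *Ireb2* had log2 folds of -0.29 (-0.87 to 0.23) and -0.44 (-0.97 to 0.04), with intervals that included 0. The 8 tdTom+ visceral endoderm-like cells, too few to compare, had 7 UMIs of *Slc40a1* (25.9 CPM, 10.4 to 53.3), 25.9 CPM of *Tfrc* and 10744 CPM of *Fth1*. Of the wider list 17 of 38 genes were higher in the host cells and 2 lower, against 13.3% and 22% of all genes. Among the higher ones was *Slc39a8*, for a metal transporter that can carry iron, at 160 and 10.5 CPM, 3.93 (3.71 to 4.14).

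Outside these tissues 2 members had strong sites of their own. *Hmox1* reached 314 CPM (289 to 340) in the 111 host extraembryonic ectoderm-like cells, 113 times its lowest level among the host clusters of at least 20 cells. Of these 111 cells, 38 had under 5000 UMIs. The next levels of *Hmox1* were 83.5 CPM in visceral endoderm-like and 77.0 CPM in endothelial-like host cells, whose intervals overlapped. *Tfrc* was at 126 CPM (111 to 144) in the extraembryonic ectoderm-like cells, above neural-like cells at 71.1 CPM and below the host erythroid-like cells. *Slc40a1*, next to visceral endoderm-like cells, was at 25.0 CPM (18.5 to 33.2) in tdTom+ and 15.8 CPM (8.42 to 27.0) in tdTom- surface ectoderm-like cells, and at 23.7 and 19.1 CPM in an unnamed cluster led by *Wnt6*. In extraembryonic ectoderm-like cells it was at 14.5 CPM (9.53 to 21.04), which overlapped with both surface ectoderm-like values, and in gut endoderm-like cells at 8.79 CPM (6.68 to 11.4) and 6.01 CPM (4.36 to 8.06). Endothelial-like and neural-like cells had under 1 CPM of *Slc40a1* in both fractions.

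Over the 31 clusters of at least 50 cells the members fell into groups by their levels, given here as descriptions, since clusters share their libraries. *Slc11a2* went with *Fth1* (Pearson's r of log2(CPM + 1) 0.84) and *Ftl1* (0.78), and *Aco1* went with *Ireb2* (0.80) and against *Slc11a2* (-0.73) and *Steap3* (-0.82), the last on 82 UMIs in all. *Tfrc* went with *Slc11a2* at 0.44 and against *Aco1* at -0.65. Among 10941 genes with at least 500 UMIs, those most like *Tfrc* were *Arhgdig* (0.82), *Slc25a37* (0.81) and *Gnl2* (0.81), and those most like *Slc11a2* were *Dhrs11* (0.91), *F10* (0.91) and *Fech* (0.90). *Fth1* was nearest to *Ncoa4* (0.89), whose product takes ferritin to the lysosome, *F10* (0.89) and *Slc39a8* (0.89), and *Ftl1* to *Acot13* (0.86), *Mgst3* (0.86) and *Acaa2* (0.82). *Steap3* was nearest to *Nxpe2* (0.93), *Ncf4* (0.92) and *Tmem14c* (0.92), and *Slc40a1* to *2200002D01Rik*, *Arhgap8* and *Cldn7* (each 0.85). *Hmox1* was nearest to *Szrd1* (0.88) and *Tfe3* (0.84), *Aco1* to *Rnf121* (0.94), *Gpx7* (0.92) and *Ptms* (0.92), and *Ireb2* to *Plekhm2*, *Crebbp* and *Rest* (each 0.89).

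The unspliced layer holds RNA with introns, and its share differed widely between the genes. The share of unspliced in all UMIs of a gene was 0.0394% for *Fth1* and 0.0591% for *Ftl1*, 2.00% for *Hmox1*, 7.02% for *Tfrc*, 17.3% for *Slc40a1*, 24.0% for *Aco1*, 28.4% for *Slc11a2*, 37.4% for *Ireb2* and 78.0% for *Steap3* over both libraries. Between matched tdTom+ and early tdTom- cells, it was 6.33% (5.57 to 7.16) and 7.44% (6.09 to 8.98) for *Tfrc* and 42.5% (39.3 to 45.8) and 38.8% (32.4 to 45.4) for *Ireb2*, with overlapping intervals. For *Slc11a2* the shares were 32.1% (28.1 to 36.3) and 22.7% (16.9 to 29.4), again with overlap. For *Hmox1* they were 2.33% (1.28 to 3.88) and 8.11% (1.70 to 21.9), the latter from 3 unspliced UMIs. For *Ftl1* they were 0.0387% (0.0294 to 0.0500) from 58 unspliced UMIs and 0.0770% (0.0503 to 0.113) from 26, intervals that only just missed each other. The later host cells, at 0.0589% (0.0456 to 0.0749), overlapped with the tdTom+ cells. Over all genes together the unspliced share was 11.2% in matched tdTom+ and 10.5% in early host cells. How many of all genes had intervals apart was not counted.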

How the data were processed

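Cells of 6 pooled chimeric embryos were sorted by tdTomato, and each fraction gave 1 droplet library, so no test between fractions was possible. The authors aligned reads with Cell Ranger 3.0.2 to mm10 (GRCm38) and extracted the spliced and unspliced counts with velocyto. They deposited these as whole-number UMI counts per cell and gene. The authors' cell table also gave the percent of mitochondrial UMIs, used here only to describe cells. Doublets were called per library and left out (377 tdTom+, 518 tdTom-), as were the other cells of 1 cluster with over 50% called doublets. Clustering (scanpy 1.11.5, leidenalg 0.10.2) left out 64 genes, the iron genes among them. For each group, spliced UMIs were added up across its cells and scaled by the group's total (CPM). A difference was called at 2-fold among genes with at least 50 UMIs over both groups, with a floor of 3 counts for a group at 0. Intervals (95%) were exact, from SciPy 1.17.1, namely conditional binomial for folds, Poisson for levels and Clopper-Pearson for shares. The fold computation was tested on simulated data. To each tdTom+ blood cell its 15 nearest tdTom- blood cells were assigned. All members are named, of the wider iron list at most the 6 largest called differences a comparison, and for each member the 3 genes most like it. Members, lists and comparisons were chosen with earlier results of these data known. Alternatives changed the total, layers, depth, weighting, doublets, filter and matching. A gene picked by the rule on likeness of pattern is not reported here.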

Additional observations from a re-analysis of the deposited data

How the results depend on the processing

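The number of members past 2-fold stayed at 0 in endothelial-like and shared non-blood cells under every alternative and moved under some alternative in the other comparisons, and no value that was called turned its direction. In the main setting 11.1% of all genes were past 2-fold in matched early cells and 49.6% in host erythroid-like over non-blood cells. The share was 41.4% in tdTom+ progenitors over non-blood cells, 35.3% in visceral endoderm-like, 1.71% in later over early host and 9.28% in myeloid-like cells. The shares under the alternatives are not given here, so the counts below do not show whether members moved more than other genes. In matched early cells 2 members were past 2-fold. 3 were with both layers added and at a minimum of 10 UMIs, where *Steap3* passed the minimum with -3.47 and -4.05. 1 was with cosine distance, with 704 matched cells, and 1 after subtracting the level in neural-like cells. *Slc40a1* gave no value with cosine distance, and *Hmox1* gave none with the subtraction, which its construction shows, since its host level lay below that of neural-like cells. The log2 fold of *Hmox1* was otherwise 1.59 to 2.44, lowest in thinned cells. In host erythroid-like over non-blood cells 7 became 6 with both layers added and without visceral endoderm-like cells, through *Slc40a1*. In tdTom+ progenitors over non-blood cells 4 became 5 with both layers added or globin and mitochondrial genes left out of the total, with *Ftl1* at 1.01 and 1.00. In visceral endoderm-like cells 6 became 5 in thinned cells, through *Slc11a2* at 0.93, seen in only 4 of 59 such cells. In later over early host cells 0 became 1 in thinned cells, with *Hmox1* at -1.71, seen in only 10 of 338 early and 11 of 1014 later cells. In myeloid-like cells 0 became 1 with both layers added and 1 at a minimum of 10 UMIs, because *Slc11a2* then passed the minimum at about the same fold, and 1 in thinned cells (*Ireb2* at 1.25) and 1 with called doublets kept (*Aco1* at -1.04). Thinned *Ireb2* was seen in 22 of 252 tdTom+ and only 1 of 25 host myeloid-like cells. The cause of the changes with thinning and with doublets was not tested. All tdTom+ blood progenitor-like cells in place of the matched ones, each later sub-cluster alone, and non-blood cells without visceral endoderm were chosen after seeing the data. No paired analysis was possible because each fraction is 1 library. Few molecules limit *Steap3* and *Slc40a1*.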
